A study of Homo sapiens with 6 samples.

Results

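The genes described here are the E2F transcription factors E2F1 to E2F8 and the pocket proteins RB1 and RBL1, 10 genes in all, picked by their symbols from the 16305 genes measured. All 10 were listed in every sample and were tested. They were measured by RNA-seq in Huh7-R cells (Huh7SR in the sample labels), a pool of cells that grew resistant to the kinase inhibitor sorafenib and was derived from Huh7, a human hepatocellular carcinoma cell line. One group was treated with fostamatinib, an inhibitor of spleen tyrosine kinase (n = 3), and the other with DMSO, the vehicle (n = 3). The labels give 2 µM for both groups and 24 h of treatment, and both groups are sorafenib-resistant, so that no parental cells enter the comparison. The treatments were in triplicate, but the labels do not say that these were separate cultures, and p-values then measure only the spread between these samples, which may be technical.

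E2F factors bind promoters of genes needed for DNA replication and cell division, most of them as dimers with a DP protein. E2F1, E2F2 and E2F3 are classed as activators, whereas E2F4 and E2F5 repress their targets together with pocket proteins, E2F6 represses with polycomb-type complexes, and E2F7 and E2F8 are atypical repressors that bind DNA without DP and without pocket proteins. The pocket proteins RB1 and RBL1 (p107) bind E2F factors until cyclin-dependent kinases phosphorylate these pocket proteins late in G1. Several of these genes, E2F1 among them, are themselves E2F targets, and RB1 is one of the tumor suppressors lost in liver cancers.

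After fostamatinib, 9 of the 10 transcripts were lower and none was higher at an adjusted p under 0.05 (limma across all genes, Benjamini-Hochberg). The exception was RB1. Of all genes, 47.8% were called changed, 24.5% lower and 23.3% higher, so that a call by itself is common in this comparison. A fall of more than 2-fold is less common, at 3.29% of all genes, and was seen for 3 of the 10 genes, E2F1, E2F2 and E2F7. In the same 9 genes every fostamatinib sample lay below every DMSO sample, a separation found for 27.4% of all genes. The median log2 fold change was -0.71 over the 10 genes and 0.0015 over all genes. Since these are bulk samples, fewer cells in a given phase of the cycle and less RNA per cell cannot be told apart.

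**Figure D1:**
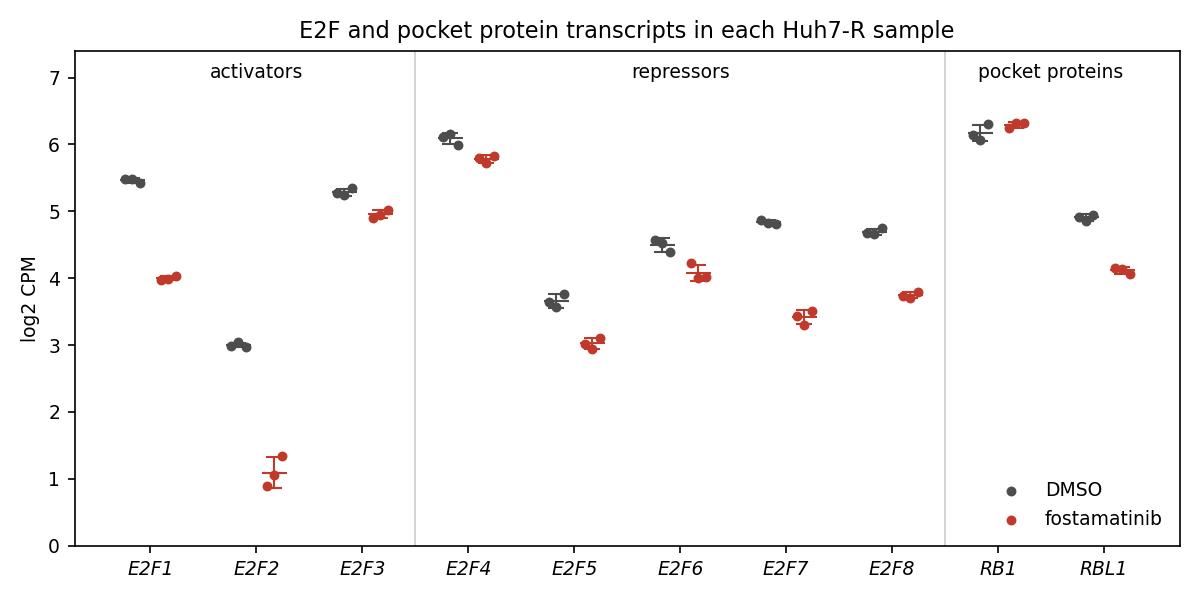
Log2 CPM (vertical axis) of each E2F and pocket protein transcript in the 3 DMSO and 3 fostamatinib samples of Huh7-R cells. Points are samples, and bars give the mean ± SD. The fostamatinib points lie below the DMSO points for every gene except RB1, whose groups overlap.

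The activators fell by unequal amounts. E2F1 (ENSG00000101412, chr20:32263283-32274191 of GRCh37, minus strand) was counted with 616, 685 and 637 reads under DMSO and with 216, 225 and 217 under fostamatinib. On the deposited log2 CPM scale its level went from 5.47 ± 0.037 to 3.999 ± 0.033 (SD, n = 3 each), and both groups were tight and far apart. Its log2 fold change was -1.47 (SE 0.071, limma adjusted p = 1.05e-18), which left 36.2% of the DMSO level. Without a variance trend in limma the adjusted p was 0.000115, so its size depends on that choice. Of all genes, 1.73% had a lower log2 fold change.

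E2F2 (ENSG00000007968, chr1:23832930-23857725, minus strand), the activator with the fewest reads, had 109, 125 and 116 reads with DMSO and 25, 29 and 33 with fostamatinib. Its mean log2 CPM was 3.0 ± 0.036 and 1.09 ± 0.227, so that the treated samples were more spread than those of any other member. The log2 fold change of -1.91 (95% confidence interval -2.25 to -1.56, limma adjusted p = 1.32e-11) was the lowest of the 10 genes. E2F2 was left at 26.7% of its DMSO level, and 0.779% of all genes had a lower log2 fold change.

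E2F3 (ENSG00000112242, chr6:20402110-20493945, plus strand), the third activator, fell far less. Its reads were 531, 575 and 604 against 410, 439 and 428, and its log2 CPM was 5.28 ± 0.056 against 4.95 ± 0.058. The treated samples were all below the controls, with a gap smaller than for E2F1 or E2F2. The log2 fold change was -0.33 (SE 0.066, limma adjusted p = 7.01e-05), that is 79.5% of the DMSO level, and 20.7% of all genes had a lower one.

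The 3 activators share an arrangement of letters just before their start sites, and RBL1 has a related one, so these stretches are printed here. The sequences are from the RefSeq promoter table (made on GRCh38.p14, 250 bases before to 50 after the start) and were placed on GRCh37 by exact match; they read 5′ to 3′ on the gene's strand, positions count bases from the start with -1 just before it, and capitals mark the upstream and downstream boxes.
E2F1, chr20:32274196-32274238, minus strand, -47 to -5 from the start: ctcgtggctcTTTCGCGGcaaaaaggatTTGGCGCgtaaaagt
E2F2, chr1:23857752-23857792, minus strand, -67 to -27 from the start: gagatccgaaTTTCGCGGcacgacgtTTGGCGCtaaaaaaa
E2F3, chr6:20402061-20402100, plus strand, -49 to -10 from the start: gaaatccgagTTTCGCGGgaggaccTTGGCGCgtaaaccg
RBL1, chr20:35724401-35724436, minus strand, -36 to -1 from the start: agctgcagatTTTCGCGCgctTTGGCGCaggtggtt

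In E2F1, E2F2 and E2F3 the box TTTCGCGG was followed, after a gap of 5 to 20 bases, by TTGGCGC on the same strand. Of 35116 promoter windows in that table, 3 held this arrangement on the gene's own strand (0.00854%), those of E2F1, E2F2 and E2F3. The opposite strand was not searched for it. TTTCGCGG alone was searched on both strands and was in 146 windows (0.416%), so the 2 counts are not alike. The arrangement was chosen after these sequences had been seen, and the count describes the table. In RBL1 the upstream box reads TTTCGCGC and stands 3 bases before the downstream one.

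A wider search for 3 forms of the E2F motif on both strands, TTTCGCGC or TTTGGCGC or TTTCCCGC, found a match for 4 of the 8 members with a window, E2F1, E2F2, E2F3 and RBL1. TTTGGCGC contains the letters of the downstream box, so the searches are not independent. No match lay in the windows of E2F4, E2F6, E2F7 or RB1, although the RB1 window lies 172706 bases inside the gene from its GENCODE start, and E2F3 has a further window without a match. E2F5 and E2F8 were without a window. Of all windows 2.74% held one of the 3 forms. A match says only that the letters are there.

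**Figure D2:**
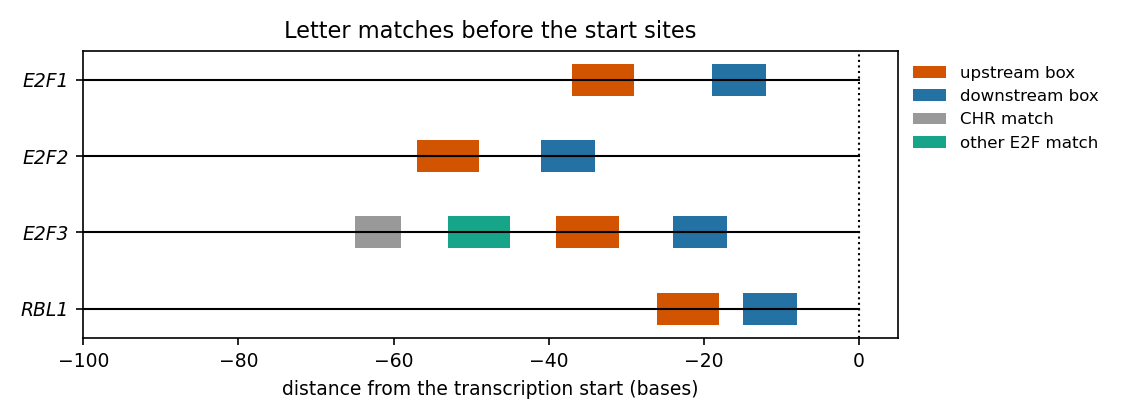
Positions of letter matches in bases before the transcription start (dotted line at 0) for E2F1, E2F2, E2F3 and RBL1. Orange marks the upstream box (TTTCGCGG, or TTTCGCGC in RBL1), blue the downstream box TTGGCGC, green another E2F motif match and grey a CHR match. The boxes follow in the same order in all 4 genes, all within 60 bases of the start.

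Of the repressors, E2F4 (ENSG00000205250, chr16:67226058-67232821, plus strand), the main E2F bound by pocket proteins in resting cells, fell the least. Its reads were 951, 1092 and 949 with DMSO and 768, 751 and 749 with fostamatinib, and its log2 CPM was 6.09 ± 0.084 and 5.78 ± 0.054. This gave a log2 fold change of -0.31 (SE 0.056, limma adjusted p = 2.1e-05), or 80.8% of the DMSO level. The groups did not overlap.

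E2F5 (ENSG00000133740, chr8:86089389-86129387, plus strand), the other repressor that acts with pocket proteins, had 171, 180 and 202 reads against 111, 109 and 114. Its level fell from 3.66 ± 0.103 to 3.02 ± 0.085 log2 CPM, a log2 fold change of -0.63 (SE 0.111, limma adjusted p = 1.1e-05). This value is uncertain, since 16.5% of the E2F5 exon bases are also covered on the opposite strand by RBIS (C8orf59 in the files), and the strand setting of the read counting is not given in the sources used here. RBIS itself fell, with 419, 452 and 440 reads against 325, 362 and 293 and a log2 fold change of -0.34 (limma adjusted p = 0.000247), and its part in the E2F5 value was not tested.

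E2F6 (ENSG00000169016, chr2:11584501-11606303, minus strand), which represses without pocket proteins, had 328, 352 and 310 reads with DMSO and 256, 227 and 213 with fostamatinib. The log2 CPM was 4.50 ± 0.099 and 4.08 ± 0.126, and the lowest DMSO sample (4.38) stood close to the highest treated one (4.22). Its log2 fold change was -0.42 (SE 0.086, limma adjusted p = 0.000106). Its pseudogenes E2F6P1 (8 to 15 reads per sample) and E2F6P2 (2 to 12 reads per sample) had few reads.

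The atypical repressors had the lowest log2 fold changes of the 5 repressors. E2F7 (ENSG00000165891, chr12:77415028-77459349, minus strand) had 402, 432 and 416 reads with DMSO and 148, 140 and 151 with fostamatinib. The log2 CPM was 4.83 ± 0.031 and 3.42 ± 0.108, and the log2 fold change was -1.42 (SE 0.087, limma adjusted p = 6.4e-16), or 37.4% of the DMSO level. This was close to the change of E2F1, and the log2 ratio of E2F1 to E2F7 was 0.62, 0.66 and 0.61 under DMSO and 0.54, 0.68 and 0.52 after treatment, and these overlapped.

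E2F8 (ENSG00000129173, chr11:19245610-19263167, minus strand), the partner of E2F7 in holding down E2F1, had 350, 387 and 399 reads against 182, 186 and 183. Its log2 CPM was 4.69 ± 0.047 and 3.74 ± 0.043, and both groups were tight. The difference on the log2 scale was -0.95 (SE 0.083, limma adjusted p = 6.4e-12), which is 51.7% of the DMSO level.

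Of the pocket proteins, RBL1 was called lower and RB1 was not called. RB1 (ENSG00000139687, chr13:48877880-49173572, plus strand), the retinoblastoma protein, had 970, 1020 and 1173 reads with DMSO and 1043, 1137 and 1060 with fostamatinib. The log2 CPM was 6.17 ± 0.123 and 6.30 ± 0.043; DMSO replicate 3 (6.30) stood above the other DMSO samples (6.14 and 6.06) and within the treated range (6.25 to 6.32). The log2 fold change of 0.13 (unadjusted 95% confidence interval 0.01 to 0.24) missed the threshold (limma adjusted p = 0.059), but without DMSO replicate 3 it was 0.19 and passed it (limma adjusted p = 0.0021). With all 6 samples kept it also passed with at least 10 reads in every sample (limma adjusted p = 0.0481) and with a replicate block (limma adjusted p = 0.0397), so the RB1 call turns on these choices and is given as a value only.

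RBL1 (ENSG00000080839, chr20:35624752-35724400, minus strand), the pocket protein p107 of cycling cells, fell from 417, 441 and 459 reads to 243, 251 and 220. The log2 CPM was 4.91 ± 0.049 and 4.11 ± 0.050, with a wide gap between the groups. The log2 fold change was -0.79 (SE 0.076, limma adjusted p = 7.36e-11), or 57.7% of the DMSO level. On the opposite strand a long noncoding RNA gene covers 3.58% of its exon bases.

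RBL2 (p130), the pocket protein of resting cells, is not among the 10 genes and was added after its values had been seen. It had 780, 813 and 905 reads with DMSO and 1116, 1172 and 1062 with fostamatinib, so that all treated samples were above all controls. It rose by 0.51 on the log2 scale (SE 0.055, limma adjusted p = 7.32e-10). Among the pocket proteins, RBL1 was thus lower, RBL2 higher, and RB1 not called.

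**Figure D3:**
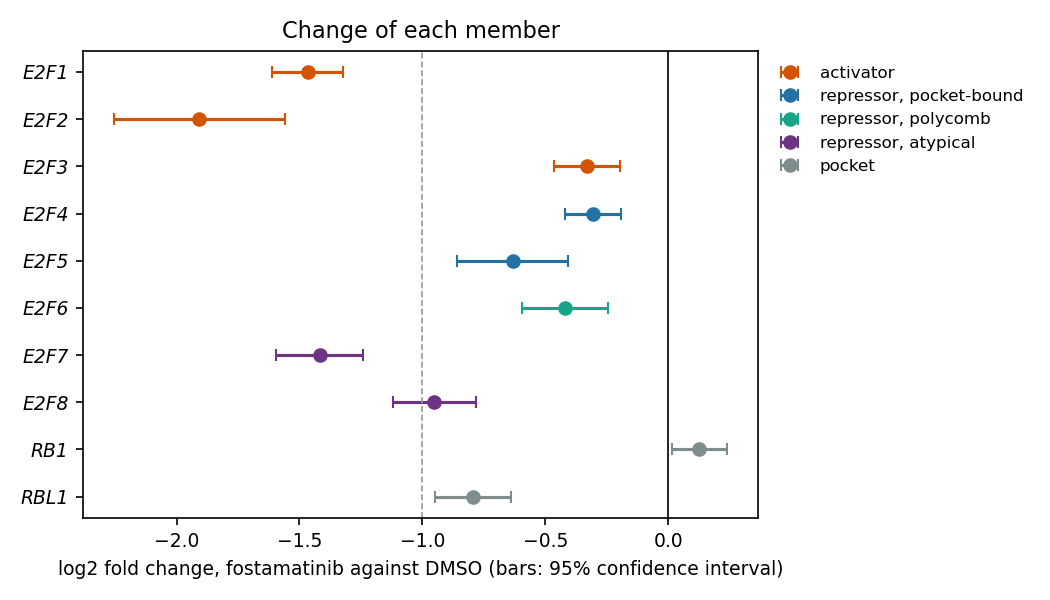
Log2 fold change of each gene, fostamatinib against DMSO (horizontal axis), with unadjusted 95% confidence intervals from limma; colours give the role and the dashed line marks a 2-fold fall. E2F2, E2F1 and E2F7 lie beyond the dashed line, E2F3 and E2F4 lie close together near -0.3, and RB1 is the one gene to the right of 0.

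Activators and repressors were compared as groups. All 3 activators and all 5 repressors were lower, and the median log2 fold change was -1.47 for E2F1 to E2F3 and -0.63 for E2F4 to E2F8. Both groups spanned wide ranges that overlapped, from -1.91 to -0.33 for the activators and from -1.42 to -0.31 for the repressors. Among the repressors the median was -0.47 for E2F4 and E2F5 and -1.18 for E2F7 and E2F8. In each sample, the mean log2 CPM of the activators minus that of the repressors was -0.191, -0.161 and -0.162 with DMSO and -0.786, -0.607 and -0.587 with fostamatinib. The treated samples were all lower, by 0.49 on average, with a split within the activators (E2F3 against E2F1 and E2F2) and within the repressors (E2F7 and E2F8 against E2F4 and E2F6).

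Within-sample log2 ratios were compared for 7 pairs of genes. The ratio of E2F1 to E2F3 changed by -1.14, that of E2F2 to E2F3 by -1.58 and that of E2F1 to E2F2 by 0.44. The ratio of E2F7 to E2F8 changed by -0.47, that of E2F4 to E2F5 by 0.33 and that of RBL1 to RB1 by -0.92. For these 6 pairs the groups did not overlap, which gave a two-sided exact permutation p of 0.10 (0.117 after Benjamini-Hochberg adjustment over the 7 pairs), and 0.10 is the smallest p that 3 against 3 samples allow. For E2F1 to E2F7, a pair chosen after the values had been seen, the change was -0.049 (exact permutation p = 0.4, adjusted p = 0.4).

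Levels between genes were compared per length, as CPM per kilobase of merged exons. With DMSO, E2F4 (18.9 ± 1.09) was the most abundant of the 10 transcripts, followed by E2F1 (16.4 ± 0.416) and RB1 (11.2 ± 0.966). E2F3 (7.505 ± 0.294), E2F8 (6.26 ± 0.205), E2F6 (5.55 ± 0.376), RBL1 (5.04 ± 0.171) and E2F7 (4.53 ± 0.0971) came next, and E2F5 (2.10 ± 0.152) and E2F2 (1.46 ± 0.0365) were last. The samples of E2F6 and RBL1 overlapped, and all other neighbours in the DMSO order were separate. After fostamatinib E2F4 (15.3 ± 0.568) and RB1 (12.2 ± 0.365) led, and E2F1 (5.93 ± 0.136) had moved from the second to the fourth place, where its samples overlapped with those of E2F3 (5.97 ± 0.242). E2F6 (4.15 ± 0.371) was then above E2F8 (3.23 ± 0.0960), and E2F2 was last at 0.387 ± 0.0629.

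The summed level of the 8 E2F transcripts was 62.8 ± 1.28 CPM per kilobase with DMSO and 38.0 ± 1.17 with fostamatinib, or 60.6% of the DMSO level. E2F1 made up 26.1% ± 0.131 of this sum with DMSO and 15.6% ± 0.361 with fostamatinib. E2F4 made up 30.2% ± 1.16 and 40.2% ± 0.343, so its share was larger after treatment although its level was lower. The share of E2F3 was 11.97% and 15.7%, that of E2F2 2.32% and 1.02%, and that of E2F7 and E2F8 together 17.2% and 13.0%. The activators as a whole held 40.4% ± 0.586 and 32.3% ± 1.06, and the repressors 59.6% and 67.7%. These are shares of RNA, not of protein, and they depend on the length used. With the longest transcript, E2F4 was at 26.1 CPM per kilobase under DMSO in place of 18.9 with merged exons, and E2F1 at 16.4 with both. The ± values give the spread between samples and do not cover the choice of length.

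**Figure D4:**
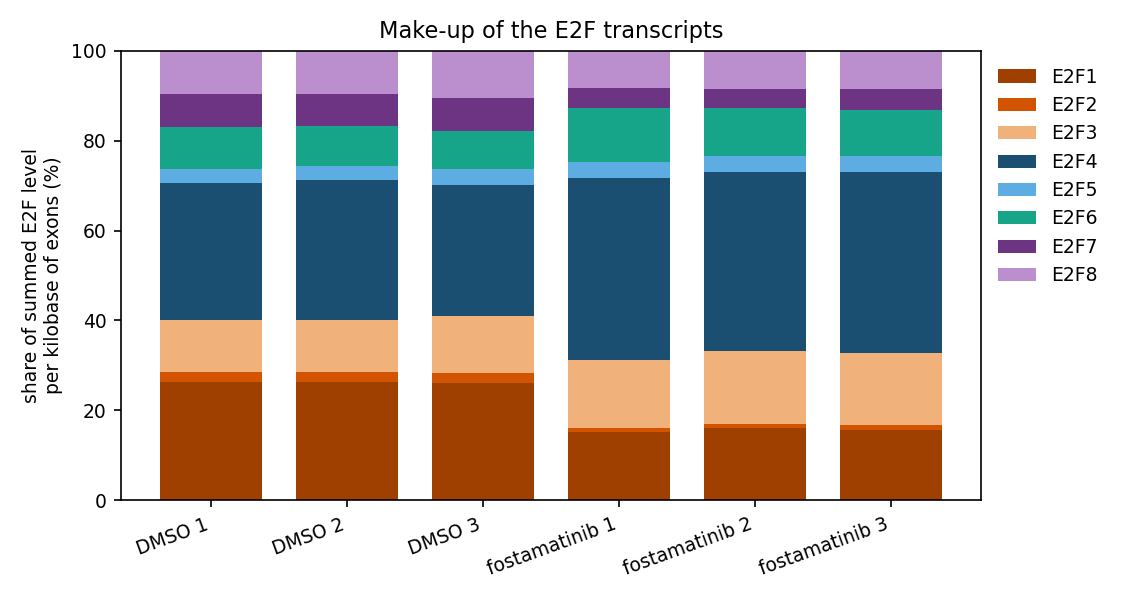
Share of each E2F transcript in the summed E2F level per kilobase of exons (vertical axis, percent), 1 bar per sample. In the 3 fostamatinib bars E2F1 takes about 15.6% where it took 26.1% with DMSO, and E2F4 takes 40.2% where it took 30.2%.

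The genes that act on the pocket proteins and with the E2F factors were followed in lists of the pathway. Each list count is to be read beside the shares of all genes, 24.5% lower and 23.3% higher. The lists were chosen with earlier results of these data known, so their counts are a description and not an independent check. Of the cyclins and kinases that phosphorylate RB1, 6 of 7 tested were lower and 1 was higher. CCND1 (cyclin D1), which activates CDK4 and CDK6 in early G1, had 2843, 2980 and 3078 reads with DMSO and 1116, 1044 and 1011 with fostamatinib, a log2 fold change of -1.40 (limma adjusted p = 2.35e-23). CCNE2 and CCNE1, the E cyclins of the G1/S step and known E2F targets, changed by -1.77 and -0.86 (limma adjusted p = 6.61e-14 and 1.87e-07). CCND3 (-0.53), CDK4 (-0.49) and CDK2 (-0.20) were also lower (limma adjusted p = 1.74e-06, 5.33e-12 and 0.000926), and CDK6 was higher by 0.16 (limma adjusted p = 0.0194). The CDK6 call was lost when DMSO replicate 1, DMSO replicate 2 or fostamatinib replicate 3 was left out.

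The inhibitors of these kinases moved both ways. CDKN2C (p18) rose from 135, 167 and 165 reads to 251, 250 and 232, a log2 fold change of 0.74 (limma adjusted p = 4.58e-08), and CDKN1B (p27) rose by 0.30 (limma adjusted p = 4.2e-06). CDKN2B (p15) fell by 0.92 on the log2 scale (limma adjusted p = 1.55e-14). CDKN1A, CDKN2A and CDKN2D were not called, with log2 fold changes of -0.09, -0.08 and 0.28 (limma adjusted p = 0.34, 0.318 and 0.133), and CDKN1C had 0 to 6 reads per sample. Without DMSO replicate 3, 2 inhibitors were lower in place of 1. Of the DP proteins that pair with E2F1 to E2F6, TFDP1 was lower (-0.34, limma adjusted p = 2.47e-07), and TFDP2 was at -0.12 (limma adjusted p = 0.106).

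Downstream, 32 of 33 G1/S genes known as E2F targets were lower and none was higher, with a median log2 fold change of -0.84. They carry out origin licensing, replication and nucleotide supply. The falls were led by GINS2 (-1.79), a subunit of the replicative helicase, and by MCM5 (-1.55) and MCM6 (-1.39), which belong to the helicase ring (limma adjusted p = 1.16e-15, 2.32e-19 and 1.57e-22). MCM5 had 739, 863 and 757 reads with DMSO and 275, 246 and 235 with fostamatinib.

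Genes of G2 and mitosis were mostly higher or not called. Of 22, 13 were higher, 3 were lower and 6 were not called, with a median of 0.12. AURKA, a kinase of the spindle poles, rose by 0.77 (2952, 3444 and 3344 reads against 5128, 5515 and 4984, limma adjusted p = 1.4e-18), and KIF20A, a kinesin of cell division, rose by 0.53 (limma adjusted p = 1.99e-12). CENPE, a kinetochore motor, rose by 0.81 (limma adjusted p = 1.91e-06), but its treated samples had 360, 438 and 694 reads and fostamatinib replicate 3 stood apart. CDK1, CCNA2 and TTK were lower by small amounts (-0.19, -0.17 and -0.14, limma adjusted p = 0.000979, 0.00354 and 0.0255). Some called rises were as small, at 0.18 for PLK1 and UBE2C, 0.14 for BIRC5 and 0.10 for TOP2A and TPX2. Their limma adjusted p was 0.00244, 0.00144, 0.0281, 0.0174 and 0.0137 in that order. They are named for their small size, and the groups overlapped for BIRC5 and TOP2A. Of the 22 genes, 7 were higher and none was lower without a variance trend, or at 1 expected false positive among all genes.

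The promoter letters of these lists differed as well. An E2F motif of the 3 forms lay in 42.2% of the 45 windows of G1/S genes and in 13.6% of the 22 windows of G2 and mitosis genes, against 3.96% of the windows of all genes in the files. With only the bases before the start, these shares were 28.9%, 9.09% and 3.38%. The CHR motif TTTGAA, bound by the MuvB complex, was in 2.22%, 59.1% and 10.9% of the same whole windows, and in 2.22%, 45.5% and 9.48% before the start. Of the members it was in 1 of 9 windows, the first of E2F3. The G1/S list was drawn up as known E2F targets, so the shares are a description.

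**Figure D5:**
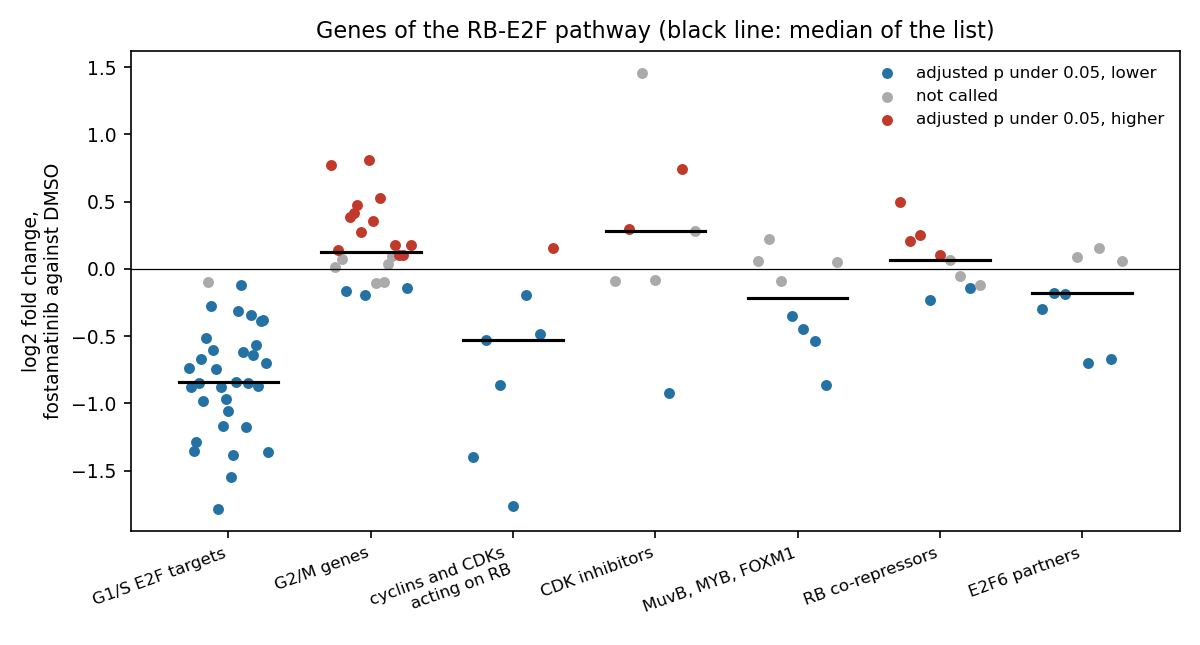
Log2 fold change of each tested gene in 7 lists of the RB and E2F pathway (vertical axis), with the median of each list as a black line; blue and red points passed an adjusted p under 0.05. All G1/S points lie below 0, whereas 13 of the 22 G2 and mitosis points are red and lie above it; the uncalled point near 1.5 is CDKN1C, with at most 6 reads per sample.

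The MuvB complex joins RBL1 or RBL2 and E2F4 in the repressive DREAM complex, and joins MYBL2 or FOXM1 to activate mitotic genes. Of 8 genes of this group, 4 were lower and none was higher. MYBL2, itself an E2F target, fell by 0.86 on the log2 scale (2040, 2307 and 2072 reads against 1134, 1120 and 1056, limma adjusted p = 2.26e-17), and MYBL1 changed by -0.53 (limma adjusted p = 0.0002). The MuvB subunits LIN9 and LIN54 changed by -0.45 and -0.35 (limma adjusted p = 0.000118 and 0.000369). FOXM1 (0.06), RBBP4 (0.05), LIN52 (-0.09) and LIN37 (0.22) were not called (limma adjusted p = 0.332, 0.364, 0.436 and 0.323).

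Of 9 corepressor genes that RB1 can recruit, 4 were higher and 2 lower, against 23.3% higher and 24.5% lower of all genes. ARID4A (0.50), HDAC1 (0.25) and ARID4B (0.21) led the rises, and HDAC2 (-0.23) and SIN3B (-0.14) fell (limma adjusted p = 7.83e-09, 1.78e-06, 0.000975, 8.53e-06 and 0.0163). Of 8 partners of E2F6 in polycomb-type complexes, 5 were lower and none was higher, led by PCGF6 (-0.70), RNF2 (-0.67) and CBX3 (-0.30), with limma adjusted p of 1.11e-06, 6.79e-06 and 2.91e-07. Without DMSO replicate 1, or without fostamatinib replicate 2, 1 corepressor gene and 3 E2F6 partners were lower. Of 7 genes listed as silenced by E2F6, 2 were tested and neither was called. These were STAG3, with 1 to 9 reads per sample, and TUBB3, with 20 to 33, named here for their low counts. Reads this few say little about E2F6 targets.

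Of 5 genes that govern the breakdown of E2F and pocket-pathway proteins, 2 were lower and 1 higher, against 24.5% lower and 23.3% higher of all genes. The counts of so short a list are a description only. FBXO5 (EMI1), an inhibitor of the anaphase-promoting complex and an E2F target, had 664, 688 and 738 reads against 402, 405 and 356, a log2 fold change of -0.76 (limma adjusted p = 4.94e-12). CKS1B, a cofactor of the ubiquitin ligase subunit SKP2, changed by -0.30, and FZR1, an activator of the anaphase-promoting complex, by 0.17 (limma adjusted p = 2.92e-06 and 0.00424). SKP2 and CCNF were not called (-0.04 and 0.06, limma adjusted p = 0.504 and 0.365). Of the E2F1 targets in cell death, BBC3 was lower (-0.30) and APAF1 was higher (0.19), with limma adjusted p of 0.00629 and 0.00367. The APAF1 call was lost without DMSO replicate 1.

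Each sample held 13303451 to 15272737 reads over the genes that passed the filter, and the correlation of log2 CPM was at least 0.9879 within groups and at most 0.9719 between them. Chi-square per degree of freedom, which is near 1 for counting error alone, was 1.65 to 3.74 between samples of a group and 39.7 to 44.3 between groups. All 10 hepatocyte and hepatoma markers were detected and all 10 were higher after fostamatinib, with a summed level of 5178 to 5520 CPM with DMSO and 7044 to 7469 with fostamatinib; APOA1, HNF4A and FGB rose by 3.19, 1.02 and 0.74 (limma adjusted p = 1.79e-18, 8.4e-22 and 1.58e-19). Of 11 markers of blood, endothelial and stromal cells 5 were tested, with a summed level of 164 to 171 CPM with DMSO and 209 to 219 with fostamatinib, and 3 were higher, PDGFRB (0.95), PECAM1 (0.51) and COL1A2 (0.37), with limma adjusted p of 0.000141, 0.000837 and 3.15e-09. COL1A2, at 1929 to 2670 reads per sample, held most of that sum. The part of these marker changes in the values of the E2F genes was not tested.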

How the data were processed

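RNA-seq of 3 DMSO and 3 fostamatinib samples of Huh7-R cells was used, with groups, dose and time taken from the labels. The authors used HISAT to place poly(A) reads on hg19, obtained gene counts from featureCounts with GENCODE, removed genes with under 5 reads in at least 2 of 3 samples of each group and applied TMM scaling. The deposited values are log2 CPM, computed by the authors with 0.5 added to each count. Reads were recovered from them, 100% within 0.05 of a whole number, and were used for depth, levels and alternatives. On genes with few reads counting error is large.

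Log2 CPM of all 16305 genes went into a linear model of limma 3.58.1 under R 4.3.3 (lmFit, eBayes with trend), treatment as the single term, Benjamini-Hochberg adjustment over all genes and a threshold of 0.05. 1 gene listed 7 times was used once. The script was tested on simulated data. Confidence intervals are limma's and are not adjusted. Gene places and exon lengths are from GENCODE on GRCh37, which held 98.7% of the gene identifiers. Ratios were compared with exact permutation tests in Python 3.11.15 with scipy 1.17.1.

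Members and lists were chosen with earlier results of these data known. Named were all members, every gene found of the lists of DP proteins, RB kinases, kinase inhibitors, MuvB with MYB and FOXM1, and turnover, and of the other lists up to 3 called rises and 3 called falls; exceptions are said where they stand, and some genes that meet this rule are not reported here. A comparison of the proteins was not made here. The alternatives were no trend in eBayes, limma-voom applied to recovered reads, RLE scaling, library size alone, 2 filters, an offset of 2, the replicate number as a block, a threshold of 1 expected false positive, and each sample left out in turn.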

Additional observations from a re-analysis of the deposited data

How the results depend on the processing

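The 9 falling members were called lower under all 15 alternatives, and of 150 combinations of member and alternative 147 kept direction and side of the threshold. RB1 was the exception: members called higher numbered 1 in place of 0 with at least 10 reads in every sample (adjusted p = 0.0481 for RB1), and 1 with a replicate block (adjusted p = 0.0397), in limma; leaving out samples gave 0 to 1. The median of E2F4 to E2F8 was -0.68 to -0.58 when samples were left out, lowest without DMSO replicate 2. The limma adjusted p of the 9 falling members was much larger without a trend. It then ran from 0.000115 for E2F1 to 0.0168 for E2F6, with 0.000498 for E2F2 and 0.000267 for E2F7. Genes called numbered 7794 and fell to 4136 at 1 expected false positive. Without a trend, higher and lower calls were 0 RB kinases higher, 7 and 0 of the G2 and mitosis genes, 2 and 1 of the corepressors, and 0 and 1 of the cell death genes. At 1 expected false positive they were 0 RB kinases higher, 7 and 0 of the G2 and mitosis genes, 2 and 1 of the corepressors, 0 and 0 of the cell death genes, 3 E2F6 partners lower and 0 turnover genes higher. Leaving out samples gave 0 to 1 RB kinases higher, 1 to 2 kinase inhibitors lower, 1 to 3 corepressors lower, 0 to 1 E2F6 partners higher and 3 to 5 lower, and 0 to 1 cell death genes higher and 1 to 3 lower. The cause was not tested.

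Same-numbered samples hardly deviated together (correlations 0.036, -0.021 and 0.037). A pairing that is weak or touches few genes would also leave low correlations. Whether the numbers pair the samples was therefore not decided. With the replicate block 7977 genes were called. The order of levels per kilobase was the same with the longest transcript in place of merged exons. Depth limits the genes with few reads, such as CDKN1C with 0 to 6 reads per sample.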
